A study of Mus musculus with 18 samples.

Results

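The genes of store-operated calcium entry and of the IP3 receptor family are 8 in mouse: the calcium sensors Stim1 and Stim2, the plasma membrane channels Orai1, Orai2 and Orai3, and the receptors Itpr1, Itpr2 and Itpr3. They were taken by gene symbol from a table of raw read counts with 24527 entries, and all 8 were among the 13827 genes that passed a filter on low counts. RNA had been sequenced from 3 mouse pancreatic ductal adenocarcinoma lines, PD454, PD7591 and PD883. Each line had spent 48 h with 2.5 µM ionomycin (an ionophore that lets calcium cross cell membranes), with 10 ng/ml of the cytokine TGFb, or with the vehicle DMSO. Each line gave 2 libraries with each agent, 9 groups in all, and so 6 libraries with ionomycin, 6 with TGFb and 6 with DMSO. All groups shared a rich medium that contained dexamethasone, insulin, cholera toxin, triiodothyronine and bovine pituitary extract. The lines are of a mixed strain background, and their driver mutations, and whether each is a single clone, are not stated in the labels.

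Many surface receptors activate phospholipase C, which cleaves a membrane lipid into diacylglycerol and the messenger IP3. IP3 opens its receptors, which are calcium channels in the membrane of the endoplasmic reticulum (ER), and the ER store empties into the cytosol. STIM proteins span the ER membrane, sense the fall of calcium in the store and open ORAI channels in the plasma membrane, through which calcium enters from outside. This refilling is called store-operated calcium entry, and in the exocrine pancreas IP3 receptors carry the calcium signals that drive secretion.

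Library totals lay between 17591005 and 37894692 counts, and a member had between 161 and 21291 counts in a library. The labels do not say that the duplicates of a group were separate cultures, so the p-values may measure technical spread, although the counts of each duplicate pair differed by more than sampling noise (chi-square per degree of freedom 4.63 to 86.2). There were 4 libraries rich in short transcripts: library 18 of PD454 and library 12 of PD883 with TGFb, and library 14 of PD454 and library 8 of PD883 with DMSO. For transcripts over 8000 bases the fitted deviation of these libraries from the mean was -0.19 to -0.50 on the log2 scale, against -0.13 to 0.29 in the other libraries. None of the 4 was an ionomycin library, and the IP3 receptor transcripts are longer than that limit, so results are also given with these libraries left out. The keratins Krt8, Krt18 and Krt7 of ductal cells were at 400.4 CPM (counts per 1e6 counts of the library) or more in every library, while the epithelial adhesion gene Epcam did not exceed 4.30 CPM. The other ductal and epithelial markers varied widely, Krt19 from 4.12 to 1746 CPM, Cdh1 from 19.0 to 781 CPM and Sox9 from 5.80 to 158 CPM. With TGFb against DMSO 2 of these 7 markers were higher (Krt18 and Sox9) and 3 lower (Krt19, Cdh1 and Epcam), and with ionomycin against DMSO 1 was higher (Krt18). The acinar genes Cpa1, Cela2a and Ptf1a and the islet genes Ins1, Ins2 and Sst had 0 counts throughout, whereas the acinar list's Cela1 reached 6.18 CPM and was higher with TGFb (log2 fold change 3.19, adjusted p = 2.02e-06). Summed markers of other cell types moved with treatment at low levels: 7 fibroblast genes summed to 6.97 to 102 CPM with TGFb and 2.02 to 5.87 CPM with DMSO, 6 immune genes to 9.01 to 29.4 CPM with ionomycin and 3.31 to 5.93 CPM with DMSO, 5 endothelial genes to 0.423 to 3.49 CPM with ionomycin and 0.182 to 0.960 CPM with DMSO, and 5 acinar genes to 2.44 to 6.18 CPM with TGFb and 0.0436 to 1.41 CPM with DMSO. Most of these sums were Col1a1 (up to 84.3 CPM), Cd68 (up to 28.8 CPM), Cdh5 (up to 2.62 CPM) and Cela1. The leukocyte gene Ptprc stayed at or under 0.274 CPM, and the part of such cells in the results below was not tested. In bulk RNA, fewer cells of a kind and less RNA per cell cannot be told apart.

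Cells kept with the calcium ionophore were first set against cells kept with its vehicle. Of the 8 members 5 were higher with ionomycin (Stim1, Orai1, Orai2, Itpr2 and Itpr3) and 0 were lower, at an adjusted p under 0.05. Over all 13827 genes 17.2% were called higher, 16.1% lower and 33.3% in either direction. The median log2 fold change was 0.50 over the members and -0.03 over all genes tested. The libraries of the ionomycin and DMSO groups did not overlap for 2 members, Orai1 and Itpr3, both above. Over all genes 7.23% did not overlap, 4.54% above and 2.69% below. The comparison of TGFb with DMSO gave another picture, with Orai1 and Itpr3 higher and Stim1, Stim2 and Orai3 lower. Called shares over all genes were 24.3% higher, 26.5% lower and 50.7% in either direction. The member median was 0.13, beside -0.00216 over all genes. With TGFb 1 member, Stim1, did not overlap with DMSO and lay below it. Over all genes 17.6% did not overlap, 8.21% above and 9.41% below. Both comparisons use the same 6 DMSO libraries, so their values are set side by side below and not correlated.

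**Figure D1:**
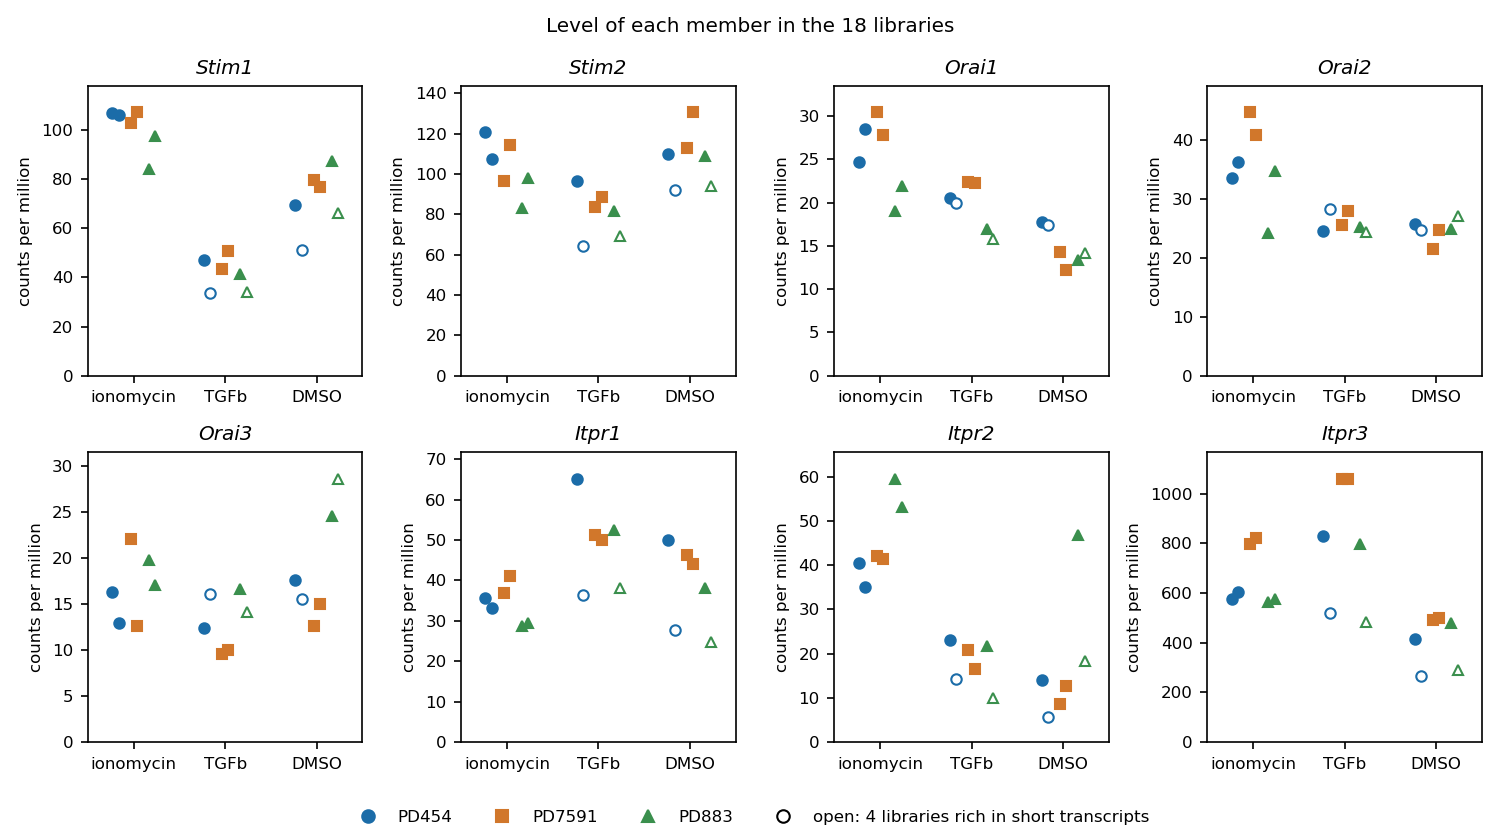
CPM (y axes, each from 0) of the 8 members in the 18 libraries by treatment (x axes); each point is a library, its colour and shape give the line, and open points are the 4 libraries rich in short transcripts. With ionomycin Orai1 and Itpr3 lay above all DMSO libraries, with TGFb Stim1 lay below all DMSO libraries, and for Itpr2 1 DMSO library of PD883, at 46.8 CPM, stood among the ionomycin libraries.

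Stim1, the ER sensor that opens ORAI channels when the store is empty, moved in opposite directions with the 2 treatments. It had a lowest, median and highest value of 84.0, 104 and 107 CPM with ionomycin, 33.8, 42.3 and 50.7 CPM with TGFb, and 51.3, 73.0 and 87.5 CPM with DMSO. All TGFb libraries lay below all DMSO libraries, and of the ionomycin libraries only library 9 of PD883, the lowest, fell under the highest DMSO library. The log2 fold change was 0.49 ± 0.12 for ionomycin against DMSO (SE, 1.41-fold, adjusted p = 0.00443, edgeR quasi-likelihood test). For TGFb against DMSO it was -0.78 ± 0.12 (adjusted p = 2.94e-05), a level 0.581 times that of DMSO. The rise with ionomycin was no longer called without PD454, where it was 0.33 (adjusted p = 0.0741).

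Stim2, the paralog that responds to smaller falls of ER calcium, did not share the rise. Its lowest, median and highest values were 83.1, 103 and 121 CPM with ionomycin, 64.4, 82.8 and 96.6 CPM with TGFb, and 92.2, 109 and 131 CPM with DMSO. The ionomycin and DMSO libraries overlapped over most of their range, and the TGFb libraries lay low with only the highest of them, library 17 of PD454, inside the DMSO range. Against DMSO the ionomycin value was -0.06 ± 0.11 (adjusted p = 0.681). Stim2 was lower with TGFb, at -0.42 ± 0.11 (adjusted p = 0.00363), a call lost without PD7591 (-0.37, adjusted p = 0.0729).

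Orai1, which forms the pore of the classical calcium-release-activated channel, was higher with both treatments. Its lowest, median and highest values were 19.0, 26.3 and 30.4 CPM with ionomycin, 15.9, 20.2 and 22.4 CPM with TGFb, and 12.3, 14.2 and 17.8 CPM with DMSO. All ionomycin libraries lay above all DMSO libraries, while TGFb libraries overlapped with both. The log2 fold change was 0.76 ± 0.11 with ionomycin (1.69-fold, adjusted p = 3.78e-05) and 0.40 ± 0.11 with TGFb (1.32-fold, adjusted p = 0.00497). Without PD7591 the TGFb value was 0.24 (adjusted p = 0.124), while the ionomycin value was 0.60 (adjusted p = 0.00315).

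Orai2, a family member that can join mixed channels with Orai1, was higher with ionomycin, while its TGFb value did not pass. It had a lowest, median and highest value of 24.2, 35.5 and 44.7 CPM with ionomycin, 24.4, 25.4 and 28.3 CPM with TGFb, and 21.5, 24.8 and 27.2 CPM with DMSO. Only library 9 of PD883 among the ionomycin libraries, the lowest of the 6, lay inside the DMSO range. Against DMSO the log2 fold change was 0.51 ± 0.12 with ionomycin (adjusted p = 0.00239) and 0.06 ± 0.12 with TGFb (adjusted p = 0.668). The ionomycin call was lost without PD7591 (0.34, adjusted p = 0.0912) and when the duplicates were summed into 1 sample (adjusted p = 0.0568).

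Orai3, an ORAI channel of mammals, was the one ORAI gene not called higher with ionomycin, and it was lower with TGFb. Its lowest, median and highest values were 12.6, 16.7 and 22.1 CPM with ionomycin, 9.56, 13.3 and 16.6 CPM with TGFb, and 12.6, 16.6 and 28.6 CPM with DMSO. The 3 treatments overlapped, and the 2 DMSO libraries of PD883, at 24.5 and 28.6 CPM, stood above all other libraries. On the log2 scale the fold change was -0.12 ± 0.16 with ionomycin (adjusted p = 0.592) and -0.50 ± 0.16 with TGFb (adjusted p = 0.0166). The fall with TGFb was not called without PD883 (-0.34, adjusted p = 0.191), without library 8 of PD883 with DMSO (-0.40, adjusted p = 0.0584), with no line term (adjusted p = 0.0628) or with summed duplicates (adjusted p = 0.0851).

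Itpr3, the IP3 receptor with the lowest affinity for IP3 and found beside Itpr2 in exocrine acinar cells, was higher with both treatments. Its lowest, median and highest values were 563 CPM, 591 CPM and 822 CPM with ionomycin, 482 CPM, 814 CPM and 1060.0 CPM with TGFb, and 264 CPM, 447 CPM and 499.6 CPM with DMSO. The ionomycin libraries all lay above the DMSO libraries. With TGFb only library 12 of PD883, 1 of the libraries rich in short transcripts, lay inside the DMSO range. The log2 fold change was 0.69 ± 0.15 with ionomycin (1.62-fold, adjusted p = 0.00221) and 0.94 ± 0.16 with TGFb (1.92-fold, adjusted p = 5.54e-05). With the 4 libraries rich in short transcripts left out, these values were 0.53 and 0.99. An antisense gene, Itpr3os, shares 2.58% of the exon bases of Itpr3, and since the strand mode of the counting is not given its reads could be counted with those of Itpr3.

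Itpr2, the receptor with the highest affinity for IP3, showed the largest ionomycin difference among the members. Its lowest, median and highest values were 35.1, 41.7 and 59.6 CPM with ionomycin, 9.87, 18.7 and 23.1 CPM with TGFb, and 5.77, 13.3 and 46.8 CPM with DMSO. All ionomycin libraries lay above all TGFb libraries and above 5 of the 6 DMSO libraries. The exception was library 7 of PD883 with DMSO. Its duplicate, library 8, 1 of the libraries rich in short transcripts, stood at 18.4 CPM. Itpr2 had a log2 fold change of 1.49 ± 0.33 with ionomycin (2.82-fold, adjusted p = 0.00191) and 0.21 ± 0.33 with TGFb (adjusted p = 0.627). With the 4 libraries rich in short transcripts left out, these values were 1.26 and 0.25. Without PD7591 the ionomycin value was 1.29 (adjusted p = 0.0514), and without library 7 it was 1.90 (adjusted p = 3.57e-05).

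Itpr1, the receptor best known from neurons and smooth muscle, did not pass against DMSO with either treatment. Its lowest, median and highest values were 28.8, 34.4 and 41.1 CPM with ionomycin, 36.4, 50.7 and 65.2 CPM with TGFb, and 24.6, 41.1 and 50.1 CPM with DMSO. The 3 groups overlapped, and library 14 of PD454 and library 8 of PD883 with DMSO were the lowest of all. The log2 fold change was -0.17 ± 0.16 with ionomycin (adjusted p = 0.435) and 0.36 ± 0.16 with TGFb (adjusted p = 0.0615). Genes on the opposite strand each share under 1% of its exon bases (Gm44101 0.988%, Gm44040 0.59%). Among the members its calls against DMSO alone changed with the length settings. Without the 4 libraries rich in short transcripts it was lower with ionomycin (-0.37, adjusted p = 0.0156) and higher with TGFb (0.31, adjusted p = 0.0333). With an offset that removed each library's trend on transcript length the values were -0.28 (adjusted p = 0.0434) and 0.50 (adjusted p = 0.000605). The TGFb value also passed without 1 library, at 0.47 (adjusted p = 0.0226) without library 13 of PD454 with DMSO, 0.42 (adjusted p = 0.0467) without library 7 of PD883 with DMSO and 0.45 (adjusted p = 0.023) without library 18 of PD454 with TGFb.

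**Figure D2:**
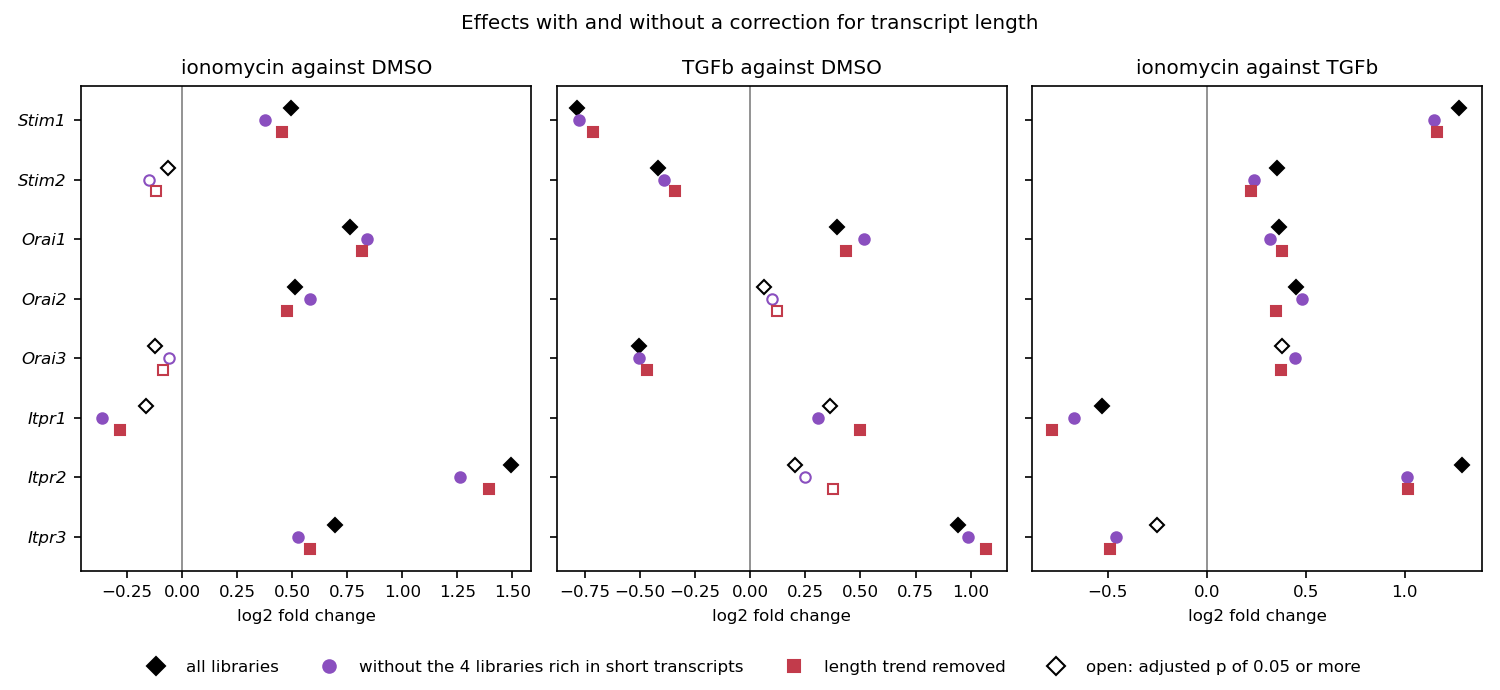
Log2 fold change (x axes) of the 8 members (y axis) in the 3 treatment comparisons with all libraries (diamonds), without the 4 libraries rich in short transcripts (circles) and with the trend on transcript length removed (squares); filled symbols had an adjusted p under 0.05. The 5 rises with ionomycin were filled in each setting, while Itpr1 against DMSO, and Itpr3 and Orai3 between ionomycin and TGFb, were filled only with the libraries left out or the trend removed.

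Set directly against each other, ionomycin and TGFb differed at most members. Of the 8 genes 5 were higher with ionomycin than with TGFb (Stim1, Stim2, Orai1, Orai2 and Itpr2) and 1 was lower (Itpr1). Over all genes 31.0% were higher, 31.9% lower and 62.9% called in either direction. Stim1 stood 1.28 ± 0.12 higher on the log2 scale (2.42-fold, adjusted p = 5.51e-08) and Itpr2 1.29 ± 0.32 higher (2.44-fold, adjusted p = 0.00202). For these 2 members all ionomycin libraries lay above all TGFb libraries. Over all genes 27.0% did not overlap, 14.7% above and 12.3% below. Itpr1 was lower with ionomycin than with TGFb by -0.53 ± 0.16 (adjusted p = 0.00693), a call lost without PD883 (-0.46, adjusted p = 0.0547). Orai3 at 0.38 ± 0.17 (adjusted p = 0.0541) and Itpr3 at -0.25 ± 0.15 (adjusted p = 0.165) did not pass. Without the 4 libraries rich in short transcripts all 8 members passed, Itpr3 at -0.46 (adjusted p = 0.000526) and Orai3 at 0.45 (adjusted p = 0.0428). In that setting 8036 of all 13827 genes passed. Itpr3 also passed without library 12 of PD883 with TGFb (-0.34, adjusted p = 0.0487). With all libraries Orai3 passed by DESeq2 (adjusted p = 0.0395), with RLE factors (0.0469), with a mean per group (0.0254) and with no low-count filter (0.0419), and it passed without PD454 (0.0298). Orai3 also passed when any 1 of 4 libraries was left out: library 10 of PD883 (adjusted p = 0.0359), library 16 of PD454 (adjusted p = 0.0335) or library 4 of PD7591 (adjusted p = 0.0494) with ionomycin, or library 18 of PD454 with TGFb (adjusted p = 0.0198).

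The order of the 3 treatments differed from gene to gene. Stim1 ran ionomycin over DMSO over TGFb, with each step called. Orai1 ran ionomycin over TGFb over DMSO, with each step called. Itpr3 ran TGFb over ionomycin over DMSO, and the step between TGFb and ionomycin did not pass with all libraries in the fit. Itpr2 and Orai2 ran ionomycin over TGFb and DMSO, and the step between TGFb and DMSO did not pass. For Stim2 the step between ionomycin and DMSO did not pass, and both lay above TGFb. For Orai3 the one step that passed was TGFb below DMSO, and for Itpr1 ionomycin below TGFb.

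Levels of different genes can be compared only per length, and were expressed as CPM per kilobase of the longest annotated transcript (mean ± SD of the 3 line means). Itpr3 was the highest member with each treatment, at 73.1 ± 14.7 with ionomycin, 88.0 ± 25.9 with TGFb and 45.2 ± 8.92 with DMSO. It made up 90.7 ± 1.62% of the IP3 receptor family with ionomycin, 92.9% (91.5% to 94.8% over the libraries) with TGFb and 89.3 ± 1.51% with DMSO, with 87.2% the lowest share in any library. Itpr1 and Itpr2 stood lowest of the 8, at 3.46 ± 0.497 and 3.88 ± 0.843 with ionomycin, 4.96 ± 0.317 and 1.52 ± 0.139 with TGFb, and 3.90 ± 0.704 and 1.51 ± 1.11 with DMSO. Itpr1 lay above Itpr2 in all TGFb libraries, while with ionomycin and with DMSO libraries lay on both sides of equality. For ionomycin this depends on the length used. Per kilobase of all exons of a gene joined, Itpr2 lay above Itpr1 in all ionomycin libraries, at means of 3.06 and 1.86. The summed IP3 receptor level was 80.4 ± 14.9 with ionomycin, 94.5 ± 26.2 with TGFb and 50.6 ± 9.17 with DMSO. The libraries rich in short transcripts stood low in this sum. With DMSO they had 32.6 (library 14) and 36.2 (library 8), beside 52.3 to 61.3 in the other DMSO libraries. With TGFb they had 62.6 (library 18) and 58.3 (library 12), beside 95.9 to 124.7 in the other TGFb libraries.

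Among the sensors the leading gene changed with treatment. Stim1 stood at 23.1 ± 1.99 CPM per kilobase with ionomycin, 9.57 ± 1.09 with TGFb and 16.4 ± 2.27 with DMSO. Stim2 stood at 20.9 ± 2.39 with ionomycin, 16.4 ± 1.06 with TGFb and 21.9 ± 2.39 with DMSO. The ratio of Stim1 to Stim2 ran from 1.00 to 1.21 with ionomycin, from 0.552 to 0.647 with TGFb and from 0.630 to 0.909 with DMSO. The ionomycin libraries did not overlap with either other group, whereas TGFb and DMSO overlapped narrowly. The share of Stim1 in the pair averaged 52.5% with ionomycin (50.03% to 54.7% over the libraries), 36.9% with TGFb (35.6% to 39.3%) and 42.7% with DMSO (38.6% to 47.6%). That Stim1 led with ionomycin depends on the length used: per kilobase of all its exons joined, which are longer, its share was 32.6% with ionomycin, 20.3% with TGFb and 24.7% with DMSO, in the same order of treatments.

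The ORAI genes shared their family more evenly. Orai1 led with ionomycin at 13.5 ± 2.38 CPM per kilobase and with TGFb at 10.5 ± 1.60, against 7.93 ± 1.25 with DMSO. Orai2 stood at 8.94 ± 1.68 with ionomycin, 6.52 ± 0.271 with TGFb and 6.21 ± 0.375 with DMSO. Orai3 stood at 7.83 ± 0.919 with ionomycin, 6.14 ± 1.38 with TGFb and 8.86 ± 3.14 with DMSO. With DMSO the libraries of the 3 genes overlapped. Orai1 made up 44.6 ± 3.65% of the family with ionomycin, 45.3 ± 5.91% with TGFb and 34.9 ± 6.24% with DMSO, and the share of Orai3 was 26.1 ± 5.29% with ionomycin, 26.5 ± 6.40% with TGFb and 37.8 ± 8.13% with DMSO. The summed ORAI level was 30.3 ± 3.77 with ionomycin, 23.1 ± 0.960 with TGFb and 22.997 ± 3.49 with DMSO, and with TGFb it held more Orai1 and less Orai3 than with DMSO. The summed STIM level was 44.0 ± 4.34 with ionomycin, 25.9 ± 2.13 with TGFb and 38.3 ± 4.13 with DMSO.

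**Figure D3:**
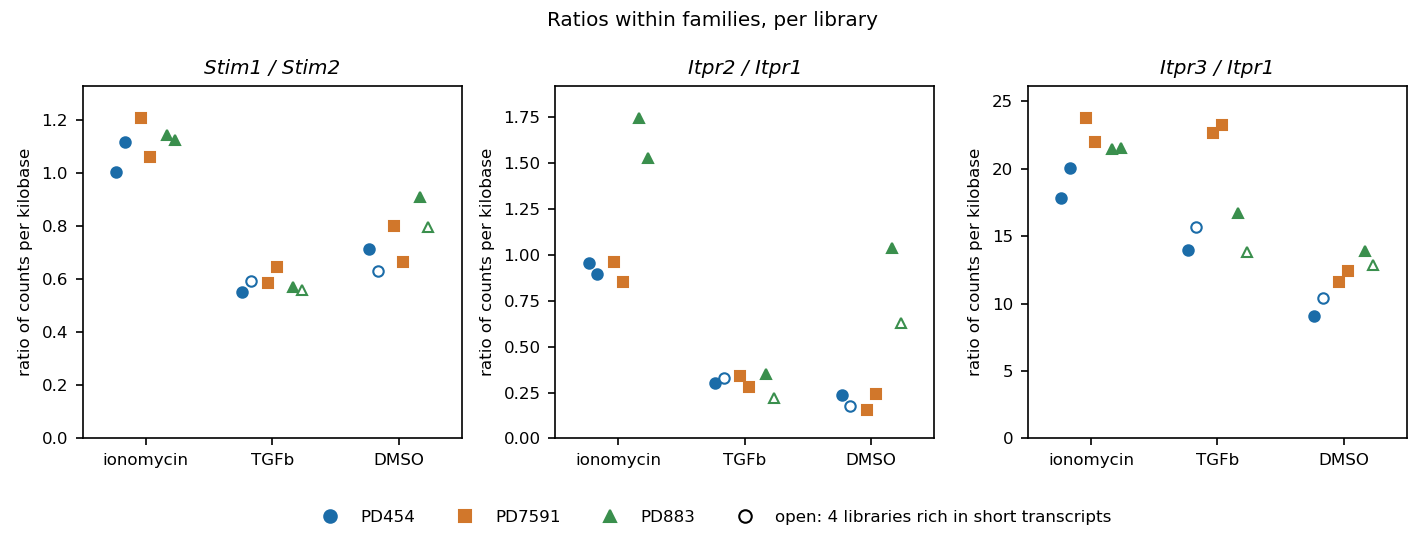
Ratios of counts per kilobase of longest transcript (y axes, from 0) between members of a family in each of the 18 libraries, by treatment (x axes); colour and shape give the line and open points are the 4 libraries rich in short transcripts. Stim1 over Stim2 was 1.00 to 1.21 with ionomycin and under 1 in all other libraries, and Itpr3 over Itpr1 was 17.8 to 23.7 with ionomycin, 13.8 to 23.3 with TGFb and 9.07 to 13.9 with DMSO.

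The longest transcripts of the IP3 receptors have 8990 to 11679 bases, and their ratios were also taken library by library. All exons of Itpr1 joined have 18319 bases, against 9870 in its longest transcript, so ratios to Itpr1 depend on the length used. The ratio of Itpr3 to Itpr1 was 17.8 to 23.7 with ionomycin, 13.8 to 23.3 with TGFb and 9.07 to 13.9 with DMSO. Ionomycin lay wholly above DMSO, and with TGFb only library 12 of PD883 dipped under the highest DMSO library. The ratio of Itpr2 to Itpr1 was 0.852 to 1.75 with ionomycin, 0.218 to 0.352 with TGFb and 0.157 to 1.04 with DMSO. Here the DMSO libraries of PD883, at 1.04 and 0.631, stood apart from the other DMSO libraries, which did not exceed 0.242.

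The lines were then taken one at a time, with 2 libraries against 2. With ionomycin 3 members were called in PD454 (Stim1, Orai1 and Itpr2), 3 in PD7591 (Orai1, Orai2 and Itpr2) and 1 in PD883 (Orai1), all higher than with DMSO, beside 21.0%, 18.6% and 22.5% of all genes called in these lines. Orai1 was thus called in each line, at 0.60 ± 0.14 in PD454, 1.13 ± 0.14 in PD7591 and 0.57 ± 0.14 in PD883, although in PD883 not when the libraries of that line were fitted alone (adjusted p = 0.127). Itpr3 was positive in each line (0.80, 0.71 and 0.57 in PD454, PD7591 and PD883) and passed in none, although in PD7591 it did when the libraries of that line were fitted alone (adjusted p = 0.000309). Itpr2 was highest in its ionomycin effect in PD454 at 1.97 ± 0.47 and in PD7591 at 1.97 ± 0.47, with 0.80 ± 0.45 in PD883. With TGFb 2 members were called in PD454, 4 in PD7591 and 2 in PD883, beside 31.0%, 37.8% and 38.4% of all genes. Stim1 was lower with TGFb in each line, at -0.58 ± 0.19 in PD454, -0.73 ± 0.19 in PD7591 and -1.03 ± 0.20 in PD883, although in PD454 not when that line was fitted alone (adjusted p = 0.0767). Between ionomycin and TGFb Stim1 was called in each line as well, at 1.40 in PD454, 1.16 in PD7591 and 1.27 in PD883, where 44.9%, 44.6% and 49.4% of all genes were called.

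No member passed the test that a treatment effect was equal in the 3 lines, for ionomycin against DMSO, TGFb against DMSO or ionomycin against TGFb. Over all genes 2.59%, 5.26% and 8.40% passed in these comparisons. These were 358, 727 and 1162 genes, and leaving out 1 library gave 101 to 688, 411 to 1093 and 592 to 1306 genes. The edgeR quasi-likelihood test gave an unadjusted p under 0.05 for Orai1 and Orai2 with ionomycin against DMSO (adjusted p = 0.176 and 0.189), for Orai1 and Itpr2 with TGFb against DMSO (adjusted p = 0.193 and 0.124), and for no member between ionomycin and TGFb. The TGFb effect on Itpr2 was 0.94 ± 0.47 in PD454, 0.81 ± 0.47 in PD7591 and -1.05 ± 0.45 in PD883, and its adjusted p for line dependence was 0.0463 without library 13 of PD454 with DMSO, 0.0276 without library 8 of PD883 with DMSO and 0.049 without library 11 of PD883 with TGFb. Without PD883 Itpr2 was higher with TGFb by 0.87 (adjusted p = 0.00968).

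**Figure D4:**
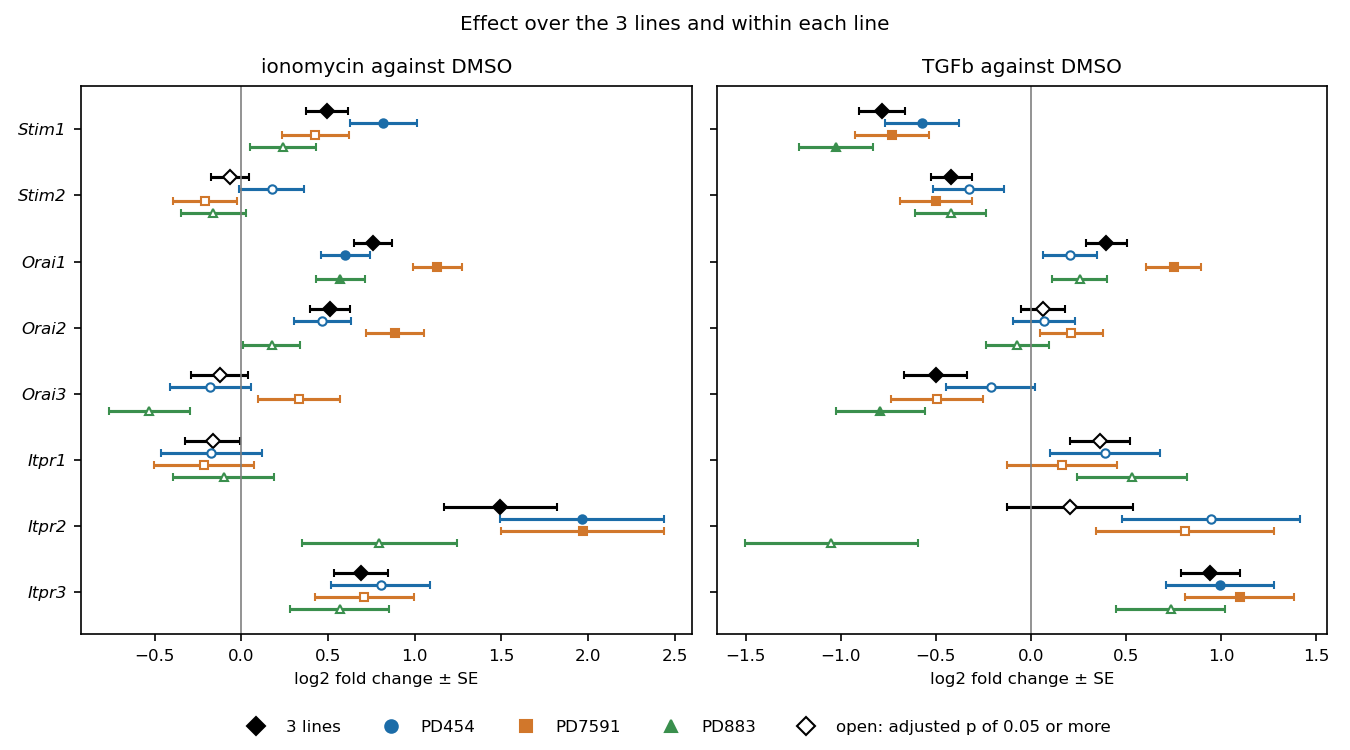
Log2 fold change ± SE (x axes) of the 8 members (y axis) for ionomycin against DMSO and TGFb against DMSO, over the 3 lines (black diamonds) and within each line (coloured symbols); filled symbols had an adjusted p under 0.05. Orai1 was filled in each line with ionomycin and Stim1 in each line with TGFb, while the TGFb effect on Itpr2 was 0.94 and 0.81 in PD454 and PD7591 and -1.05 in PD883.

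The lines were also compared with each other in DMSO. Orai3 and Itpr2 were higher in PD883, and the other 6 members passed in none of the 3 pairs of lines. Over all genes 21.5% were called between PD7591 and PD454, 35.3% between PD883 and PD454 and 34.0% between PD883 and PD7591. Orai3 had 24.5 and 28.6 CPM in PD883, 17.6 and 15.6 CPM in PD454 and 12.6 and 14.96 CPM in PD7591. Its log2 fold change was 0.68 ± 0.23 for PD883 against PD454 (adjusted p = 0.0339) and 0.95 ± 0.23 for PD883 against PD7591 (adjusted p = 0.00722). Itpr2 had 46.8 and 18.4 CPM in PD883, 13.9 and 5.77 CPM in PD454 and 8.58 and 12.6 CPM in PD7591. Its log2 fold change was 1.75 ± 0.47 for PD883 against PD454 (adjusted p = 0.0108) and 1.61 ± 0.47 for PD883 against PD7591 (adjusted p = 0.0167). Several of these calls were lost without a single library. Without library 7 of PD883, Itpr2 gave 0.93 (adjusted p = 0.178) for PD883 against PD454 and 0.79 (adjusted p = 0.232) for PD883 against PD7591. The first was also lost without library 14 of PD454 (1.23, adjusted p = 0.0879) and the second without library 1 of PD7591 (1.38, adjusted p = 0.126). Orai3 between PD883 and PD454 was lost without library 7 (0.79, adjusted p = 0.0605) or 8 (0.58, adjusted p = 0.132) of PD883 and without library 13 (0.77, adjusted p = 0.0696) or 14 (0.61, adjusted p = 0.137) of PD454, and on leaving out the 4 libraries rich in short transcripts (0.50, adjusted p = 0.256). Orai3 between PD883 and PD7591 was lost without library 1 of PD7591 (0.85, adjusted p = 0.0706). These settings were chosen after the data had been seen. In a fit of the DMSO libraries alone Itpr2 between PD883 and PD7591 did not pass (1.61, adjusted p = 0.0632).

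The promoters of the 5 members called higher with ionomycin are shown. Each is the 250 bases upstream of the RefSeq start on the build GRCm38.p6, read 5′ to 3′ along the strand of the gene. Capitals mark an E-box (CACGTG, bound by basic helix-loop-helix factors) or a short site of the cAMP response element (TGACG, or CGTCA on the other strand).
Stim1 (chr7:102267569-102267818, plus strand): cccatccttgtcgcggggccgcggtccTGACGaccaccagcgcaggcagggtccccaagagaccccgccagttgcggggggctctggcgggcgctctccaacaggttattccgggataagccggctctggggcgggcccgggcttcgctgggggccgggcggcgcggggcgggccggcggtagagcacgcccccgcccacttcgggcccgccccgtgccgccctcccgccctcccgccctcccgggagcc
Orai1 (chr5:123014824-123015073, plus strand): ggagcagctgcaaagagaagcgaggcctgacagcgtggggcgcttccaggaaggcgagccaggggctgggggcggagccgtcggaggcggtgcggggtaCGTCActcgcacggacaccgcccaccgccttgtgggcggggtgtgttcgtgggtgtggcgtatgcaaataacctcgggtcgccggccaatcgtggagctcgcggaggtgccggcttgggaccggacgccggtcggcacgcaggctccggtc
Orai2 (chr5:136170657-136170906, minus strand): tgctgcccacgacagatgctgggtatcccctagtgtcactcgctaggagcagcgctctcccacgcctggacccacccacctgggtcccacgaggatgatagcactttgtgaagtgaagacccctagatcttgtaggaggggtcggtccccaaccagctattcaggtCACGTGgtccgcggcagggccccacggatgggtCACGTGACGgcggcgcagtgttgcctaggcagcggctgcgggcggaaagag
Itpr2 (chr6:146502224-146502473, minus strand): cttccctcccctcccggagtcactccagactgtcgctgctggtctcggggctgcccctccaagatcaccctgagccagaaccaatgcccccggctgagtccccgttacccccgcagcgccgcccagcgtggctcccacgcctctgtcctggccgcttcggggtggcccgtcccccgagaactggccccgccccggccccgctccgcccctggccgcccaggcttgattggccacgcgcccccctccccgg
Itpr3 (chr17:27057054-27057303, plus strand): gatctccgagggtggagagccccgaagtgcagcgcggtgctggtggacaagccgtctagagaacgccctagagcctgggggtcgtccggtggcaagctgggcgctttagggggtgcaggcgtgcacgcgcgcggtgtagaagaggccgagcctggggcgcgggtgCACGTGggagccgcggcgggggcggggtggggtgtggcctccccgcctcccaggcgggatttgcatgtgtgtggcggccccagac
The Orai2 window held 2 E-boxes and 1 short CRE site, and the second E-box overlaps that site. The Itpr3 window held 1 E-box, the Stim1 and Orai1 windows 1 short CRE site each, and the Itpr2 window neither. Of 32851 windows of the same length in the RefSeq set, 6.02% held at least 1 E-box, 0.429% at least 2, and 17.8% at least 1 short CRE site. The full element TGACGTCA (1.55% of windows) and the AP-1 motif TGANTCA (6.75%) were found in no member window, on either strand. The core of the NFAT motif, GGAAA (55.6% of windows), was in Orai2 once and in Orai3 at 2 places, and the SMAD element CAGAC (42.2%) was in Itpr3, Itpr2 and Stim2 once each and in Orai3 at 3 places. Of the 8 members 7 had an entry in the table, and Itpr1 had none. A match of letters is a description of the window and does not show that a factor binds there.

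The genes lie on 4 chromosomes of GRCm38 in the GENCODE annotation. Stim1 spans chr7:102267806-102437319 and Orai3 chr7:127769815-127775150, both on the plus strand. Stim2 spans chr5:53998499-54121057 and Orai1 chr5:123015074-123030456 on the plus strand, and Orai2 chr5:136147459-136170713 on the minus strand. Itpr1 spans chr6:108213096-108551109 on the plus strand and Itpr2 chr6:146108299-146502223 on the minus strand, while Itpr3 spans chr17:27057304-27122223 on the plus strand. All 8 are annotated as protein-coding, with 2 blocks of joined exons in Orai1, 3 in Orai3, 4 in Orai2, 14 in each STIM gene and 58 to 64 in the IP3 receptor genes.

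Genes that act around these members were read from 7 lists. Levels are given as mean CPM ± SD of the 3 line means, and effects as log2 fold changes against DMSO. Regulators of store-operated entry and of ER contact sites gave 4 genes higher and 2 lower with ionomycin, and 5 higher and 3 lower with TGFb, of 17 tested, with median log2 fold changes of 0.07 and 0.16. Of all genes 33.3% were called with ionomycin and 50.7% with TGFb. Saraf, which switches store-operated entry off, was higher with ionomycin, at 158 ± 24.1 CPM against 109 ± 16.7 CPM with DMSO (log2 fold change 0.53, adjusted p = 0.000146). The tether Esyt2, which holds the ER to the plasma membrane, was higher with ionomycin and lower with TGFb, at 468 ± 111 CPM with ionomycin, 143 ± 39.6 CPM with TGFb and 232 ± 15.4 CPM with DMSO (0.99, adjusted p = 0.000103, and -0.73, adjusted p = 0.000668). Ormdl3, an ER protein of sphingolipid control, was higher with TGFb (1.25, adjusted p = 3.5e-06). The scaffold Homer3, whose family links IP3 receptors to surface receptors, stood at 61.1 ± 10.7 CPM with TGFb and 20.9 ± 4.72 CPM with DMSO (1.55, adjusted p = 3.3e-09). Slc35g1, a partner of Stim1 also called POST, was lower with both treatments (-0.68, adjusted p = 0.00252, with ionomycin and -0.98, adjusted p = 3.71e-05, with TGFb), the ionomycin call being lost without PD7591 (adjusted p = 0.0572) and with no line term (0.0764). Of 7 TRPC genes, cation channels tied to phospholipase C and in part to stores, only Trpc1 was tested. It stood at 19.2 ± 6.42 CPM with ionomycin, 8.12 ± 2.35 CPM with TGFb and 11.8 ± 0.783 CPM with DMSO, higher with ionomycin (0.64, adjusted p = 0.00508) and lower with TGFb (-0.60, adjusted p = 0.00483). Its ionomycin call was lost without PD454 (adjusted p = 0.115) and with summed duplicates (0.0631), and its TGFb call without PD7591 (adjusted p = 0.118) and with no line term (0.0725).

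Enzymes that make and remove IP3 are set beside the same shares of all genes, 33.3% with ionomycin and 50.7% with TGFb. Of 10 phospholipase C genes 1 was higher and 1 lower with ionomycin, and 4 were higher and 4 lower with TGFb, with medians of 0.06 and 0.38. The ionomycin calls were Plcd1 (0.91, adjusted p = 0.0369) and Plch1 (-0.38, adjusted p = 0.0154). That of Plcd1 was lost without the 4 libraries rich in short transcripts (adjusted p = 0.127), without PD454 (0.391) and without PD7591 (0.207). It was also lost with no line term (0.134), summed duplicates (0.17) and library totals (0.0545). The same held for limma-voom (0.168) and a fit of the ionomycin and DMSO libraries alone (0.0535). That of Plch1 was lost without PD7591 (-0.27, adjusted p = 0.241) and with summed duplicates (0.168). With TGFb Plcg1, activated by receptor tyrosine kinases, stood at 150 ± 17.4 CPM against 74.6 ± 7.89 CPM with DMSO (1.01, adjusted p = 7.25e-07), and Plcg2 was higher by 1.46 (adjusted p = 1.43e-06). Plcb1, activated by G proteins, stood at 0.752 ± 0.304 CPM with TGFb and 6.55 ± 3.98 CPM with DMSO (-3.02, adjusted p = 3.21e-07), and Plch1 was lower by -1.13 (adjusted p = 1.78e-07). Of 13 kinases and phosphatases of inositol phosphates 5 were higher and 1 lower with ionomycin, and 2 were higher and 7 lower with TGFb, with medians of 0.28 and -0.37. The 5-phosphatases Inpp5a and Inpp5b, which can end the IP3 signal, were higher with ionomycin by 0.61 (adjusted p = 0.000398) and 0.59 (adjusted p = 2.35e-05). The IP3 3-kinase Itpkc was higher with TGFb by 0.89 (adjusted p = 4.17e-05), and the inositol monophosphatase Impa2 was lower by -1.17 (adjusted p = 1.03e-07). Itpkb, another IP3 3-kinase, was higher with TGFb (0.71, adjusted p = 0.0108), and the inositol phosphate kinase Itpk1 was lower (-1.09, adjusted p = 1.02e-06). Impa1, a monophosphatase, was lower with ionomycin (-0.41, adjusted p = 0.0157), a call lost without the 4 libraries (adjusted p = 0.123). It was also lost without PD454 (0.116), without PD7591 (0.208), with no line term (0.0913) and with summed duplicates (0.0718).

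Partners of the IP3 receptors are set beside the shares of all genes, 17.2% higher and 16.1% lower with ionomycin. With TGFb these shares were 24.3% higher and 26.5% lower. Of 19 tested 8 were higher and 3 lower with ionomycin, and 3 were higher and 8 lower with TGFb, with medians of 0.29 and -0.28. Itprip, which can dampen IP3 receptor release, showed the largest value of the list with ionomycin: 94.2 ± 27.8 CPM with ionomycin, 63.9 ± 13.3 CPM with TGFb and 20.7 ± 2.09 CPM with DMSO (2.16, adjusted p = 6.97e-08, and 1.63, adjusted p = 2.44e-07). Grina, a membrane protein of the family of Tmbim6, was higher with ionomycin by 0.86 (adjusted p = 5.43e-05). The survival gene Bcl2l1, whose protein binds IP3 receptors, stood at 113 ± 22.0 CPM with TGFb and 386 ± 78.7 CPM with DMSO (-1.76, adjusted p = 1.31e-08). Ahcyl2, from the family of the IP3-site competitor IRBIT, was lower with TGFb by -1.30 (adjusted p = 3.65e-08). Bok, a relative of Bcl2 that binds IP3 receptors, was lower with ionomycin by -0.64 (adjusted p = 0.000483), as was Rnf170, a ubiquitin ligase that acts on IP3 receptors, by -0.77 (adjusted p = 0.00533). The ionomycin call of Rnf170 was lost without PD454 (adjusted p = 0.0671), without PD883 (0.0977), with no line term (0.0504) and with summed duplicates (0.0967). Bcl2 was higher with TGFb by 0.49 (adjusted p = 0.00593), a call lost without PD454 (adjusted p = 0.0715), without PD883 (0.0549) and with no line term (0.105). The count of partners called with ionomycin was 6 higher and 4 lower when library totals replaced composition factors, and 5 higher and 3 lower without the 4 libraries rich in short transcripts. Of all 13827 genes 4931 were called with library totals, 1936 of them higher. Without the 4 libraries 3748 were called, 2085 of them higher.

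Other routes of ER and mitochondrial calcium are set beside 33.3% of all genes called with ionomycin and 50.7% with TGFb. Of 7 ryanodine receptor, leak and counter-ion channel genes 2 were higher and 1 lower with ionomycin, and 1 was higher and 2 lower with TGFb, with medians of 0.11 and -0.18. The ER potassium channel gene Tmem38b, also called TRIC-B, which balances the charge of calcium release, stood at 33.9 ± 3.79 CPM with ionomycin, 11.05 ± 0.897 CPM with TGFb and 17.8 ± 3.64 CPM with DMSO (0.94, adjusted p = 3.49e-06, and -0.67, adjusted p = 4.35e-05). Ryr1, the ryanodine receptor of skeletal muscle, stayed low, at 2.12 ± 1.27 CPM with TGFb and 0.535 ± 0.494 CPM with DMSO (2.19, adjusted p = 0.000116). The lysosomal channel gene Mcoln1 was higher with ionomycin (0.41, adjusted p = 0.00166), a call lost with summed duplicates (0.0603). Tmem38a was lower with ionomycin (-0.58, adjusted p = 0.0255) and with TGFb (-0.56, adjusted p = 0.0194). Neither call held without the 4 libraries rich in short transcripts (adjusted p = 0.0895 and 0.109). Both were also lost without PD7591 (0.145 and 0.101) and with summed duplicates (0.158 and 0.115). The ionomycin call was lost without PD883 (0.118) and with no line term (0.0823) too, and the TGFb call without PD454 (0.109). Of 12 genes of mitochondrial uptake 3 were higher and 1 lower with ionomycin, and 1 was higher and 3 lower with TGFb, with medians of 0.03 and -0.06. Mcu, the pore of the mitochondrial uniporter, stood at 220 ± 6.03 CPM with ionomycin, 36.8 ± 15.6 CPM with TGFb and 151 ± 2.01 CPM with DMSO, with a log2 fold change of -2.08 with TGFb (adjusted p = 4.36e-08). Micu2, a regulator of the uniporter, was higher with TGFb (0.43, adjusted p = 0.00245). Mcub (listed as Ccdc109b), a pore subunit that lowers uptake, was higher with ionomycin by 1.16 (adjusted p = 7.57e-05). Vdac1, a channel of the outer membrane, was lower with ionomycin (-0.27, adjusted p = 0.0227), a call lost without the 4 libraries (adjusted p = 0.136). It was also lost without PD454 (0.219), without PD7591 (0.053) or without PD883 (0.0889). The same held with no low-count filter (0.0921), no line term (0.099) and summed duplicates (0.205). The lists were not tested as lists. No gene named here changed direction under the settings tried for these genes, which did not include leaving out single libraries.

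**Figure D5:**
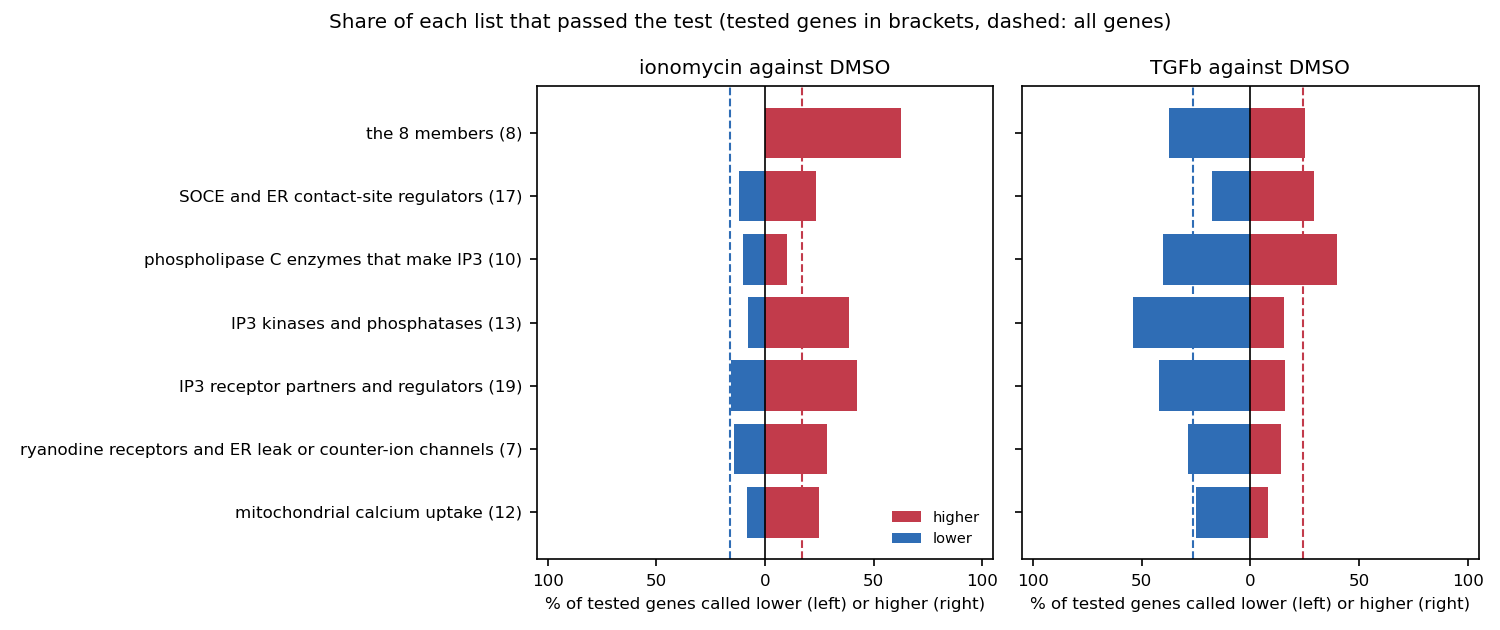
Percentage of the tested genes of each list called lower (left of 0) or higher (right of 0) with ionomycin and with TGFb against DMSO; tested genes are in brackets, dashed lines give the percentage over all genes, and the TRPC list with 1 tested gene is left out. With ionomycin the 8 members had 5 called higher and none called lower, while with TGFb 7 of 13 inositol phosphate enzymes and 8 of 19 IP3 receptor partners were called lower. Of all genes 17.2% were called higher and 16.1% lower with ionomycin, and 26.5% lower with TGFb.

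For each member the 2 tested genes nearest to it in pattern were taken from 11223 genes with a mean of at least 2 CPM, by the root mean square difference of centred log2 CPM over the 18 libraries. Klf3 (0.16) and Cgnl1 (0.17) were nearest to Stim1, whose own deviation was 0.56. Rapgef6 (0.13) and Ankrd28 (0.14) were nearest to Stim2, whose own deviation of 0.26 was the smallest of the 8. For the channels these were Gcc1 (0.17) and Slc45a4 (0.21) for Orai1, Ltbr (0.18) and Tmem115 (0.18) for Orai2, and Appl2 (0.21) and Slc31a2 (0.24) for Orai3. Among the receptors Clasp1 (0.17) and Carm1 (0.18) stood nearest to Itpr1, and Bcr (0.26) and Sgpl1 (0.27) to Itpr3. Itpr2 had the least similar neighbours, Oplah (0.42) and Rab11fip5 (0.45), beside an own deviation of 0.95. No member was among the 2 nearest genes of another member.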

How the data were processed

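RNA of 18 libraries was measured, and the authors deposited raw counts of reads per gene, with 1 column for each library. Per the submitters' processing notes, CASAVA, Trimmomatic 0.32, STAR and featureCounts were used with the build mm10. What settings, strandedness and gene annotation the counting used is not given in the sources used here. Of the 24527 entries deposited, 5059 were at 0 in all libraries, 26 had date-like names (up to 0.321% of a library's counts), and 0 columns were left unused.

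Counts were tested with edgeR 4.0.16 in R 4.3.3 (TMM factors, a low-count filter, robust quasi-likelihood fit of treatment and line, Benjamini-Hochberg adjustment over all 13827 genes, called at an adjusted p under 0.05). Effects within lines and between lines used a mean for each of the 9 groups. Levels are CPM with TMM factors. Per-kilobase levels used GENCODE transcript lengths, found for 97.6% of tested genes, and promoters came from RefSeq tables (GRCm38.p6). The code was tested on simulated data. Alternatives included DESeq2 1.42.0, limma 3.58.1, other scalings, left-out libraries and lines, summed duplicates and a length offset. The members and gene lists, and the 4 libraries rich in short transcripts, were chosen with earlier results of these data known. From each list up to 2 genes higher and 2 lower in each comparison with DMSO, with the smallest p among called genes, were named, and for each member the 2 genes nearest in pattern. Some genes that this rule names are not reported here.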

Additional observations from a re-analysis of the deposited data

Results flagged for a closer look

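Itpr2 in library 7 of PD883 with DMSO stood at 46.8 CPM, far from the other 5 DMSO libraries, of which the nearest, its duplicate, stood at 18.4 CPM. That duplicate, library 8, was 1 of the 4 libraries rich in short transcripts, and the longest Itpr2 transcript has 11679 bases. For Itpr2 this pair differed by 1.34 in log2 CPM. The DMSO pair of PD454, which also holds such a library, differed by 1.26. On the CPM scale the gap was 0.692 of the range of the 6 libraries, over the 95% critical value of Dixon's test. Log2 values, on which such a gap is narrower, were not put to it. Of the 24 groups of 6 libraries tested (8 members in 3 treatments) 1 passed, and chance flags about 1 in 20. The cause was not tested. The 6 DMSO libraries come from 3 lines, and both DMSO libraries of PD883 were the highest for Itpr2.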

How the results depend on the processing

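No paired analysis was possible because the groups share no library numbers; the line, which all treatments share, is a term of the fit, so treatments were compared within lines. Of 336 values of members in the treatment comparisons under other settings, 305 kept their direction and their side of the threshold, 13 lost and 14 gained a call, and 4 changed sign. Leaving out 1 library gave 3779 to 4916 genes and 5 members called for ionomycin against DMSO, 6384 to 7358 genes and 4 to 6 members for TGFb against DMSO, 8267 to 8877 genes and 6 to 7 members for ionomycin against TGFb, 0 to 1 member for line dependence, and 1 to 4 calls between lines with DMSO. Ionomycin against DMSO called 2152 genes with no line term and 1858 with summed duplicates, and 3132 genes and 3 members without PD7591. TGFb against DMSO called 4646 genes and 3 members with summed duplicates, and 5089 genes and 3 members without PD7591. With library totals the median of all genes was -0.12 for ionomycin against DMSO and -0.11 for ionomycin against TGFb, and 39.3% of calls for ionomycin were higher, against 51.6% with TMM factors. Among the 336 values signs changed for Itpr2 with TGFb (-0.17 without PD454, -0.0835 without PD7591). They also changed for Stim2 with ionomycin (0.0234 without PD7591) and Orai3 with ionomycin (0.10 without PD883). Within PD454, an effect not among the 336 values, Orai3 changed sign between ionomycin and TGFb (-0.0269, library totals). None of these was called. With summed duplicates Orai1 lost its call for ionomycin against TGFb (adjusted p = 0.082) and for TGFb (0.0969), and without PD7591 Orai2 lost that between ionomycin and TGFb (0.0558). Between lines with DMSO, leaving out 1 library gave uncalled differences on both sides of 0: for PD7591 minus PD454, Itpr1 -0.15 to 0.70 and Itpr2 -0.39 to 0.88; for PD883 minus PD454, Itpr1 -0.67 to 0.17, Stim2 -0.10 to 0.14, Orai2 -0.00430 to 0.11 and Itpr3 -0.23 to 0.54; for PD883 minus PD7591, Stim1 -0.24 to 0.17 and Orai1 -0.0608 to 0.18. Without the 4 libraries rich in short transcripts such values were Itpr1 -0.16 and Itpr2 -0.39 for PD7591 minus PD454, Orai2 -0.0273 for PD883 minus PD454 and Stim1 0.19 for PD883 minus PD7591. These settings between lines were chosen after the data had been seen, and the cause of the changes was not tested. Of 602 values of named pathway genes 550 kept their call, 52 lost it and 0 changed sign. Single libraries were not left out for these genes. The lowest count of a member in a library was 161.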
